A study of Mus musculus with 17 samples.

Results

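The response of mouse embryonic stem cells to 2 h of RAF-ERK activation with no inhibitor present is described here, in the RNA made during a short labelling period. It was read from 5 sequencing libraries, 3 from cells given 4-hydroxytamoxifen (4OHT) and 2 from cells labelled DMSO. The genes described are all those that passed a filter on low counts in these 5 libraries, 13985 of the 25899 gene symbols in the count table. The filter used the counts and not the difference between the groups. A gene scarce with DMSO could still pass through the 4OHT libraries alone, and the reverse. Such a gene was tested only because it was higher in that group.

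All groups share 1 genetic design, controls included. The cells are of the E14tg2a embryonic stem cell line (129SV background). Their endogenous Erk1 and Erk2 genes were knocked out and replaced by a FLAG-tagged ERK2 Q103A cDNA, a form of the kinase that PP1 analogues can block. They also carry cRAF-ErT2, a RAF kinase fused to a hormone-binding domain that 4OHT activates. They were grown in serum with LIF and 2 µM Chir99021, and for the 24 h before treatment Chir99021 was replaced by 250 nM PD173074. This FGF receptor inhibitor was thus given to every group. The 4OHT cells received 250 nM 4OHT for 2 h, and the DMSO cells are labelled as untreated, at 0 h, with no statement of a 2 h period with vehicle. Ethynyl uridine at 5 mM was added 15 minutes before RNA was collected, and labelled RNA was captured by click chemistry and is called new RNA here. The libraries are named by treatment and by cell clone: DMSO b and c, and 4OHT a, b and c. The p-values therefore measure only the spread between clones of 1 line, no DMSO library of clone a was analysed, and an effect of 4OHT itself cannot be told apart from one of RAF in this pair of groups. Parallel groups received 4OHT together with an inhibitor of MEK at 1 µM (called MEKi, since its code is spelled in different ways in the descriptions) or with PP1 at 2 µM, each beside 3 libraries of the inhibitor alone.

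RAF phosphorylates and activates MEK, and MEK phosphorylates and activates ERK. ERK phosphorylates transcription factors such as the ETS-family ternary complex factors that sit with SRF, and the genes that respond within minutes encode further transcription factors, together with phosphatases, Sprouty proteins and other inhibitors that limit the pathway. In mouse embryonic stem cells ERK signalling downstream of FGF4 is known for driving the exit from naive pluripotency, and its inhibition helps to hold cells in the naive state.

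Library totals were 7680990 to 11093390 counts, so 3 counts corresponded to 0.237 to 0.493 CPM (counts scaled to library size, here with TMM factors of the 5 libraries, the unit used for levels throughout). CPM are not per gene length and are compared here between libraries of 1 gene, not between genes. Across genes, log2 CPM correlated with Pearson's r of 0.983 to 0.992 within the groups and 0.929 to 0.935 between them (genes are not independent replicates). The library 4OHT b stood apart in 1 respect: 14 loci with very high counts, Cdk8, Lars2 and Zc3h7a among them, took 28.9% of its counts against 9.38% to 15.7% in the other 4. Leaving that library out gave 7168 changed genes in place of 7442. Of 10 embryonic stem cell markers, Pou5f1, Sox2, Nanog, Esrrb, Zfp42, Sall4 and Tdgf1 were each above 100 CPM in all 5 libraries, and Dppa4, Dppa5a and Utf1 had 9.88 to 180.4 CPM.

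Among the genes that the constructs concern, Mapk3, which encodes ERK1, had 13.3 and 12.7 CPM in the DMSO libraries and 9.50, 14.8 and 14.4 CPM in the 4OHT libraries. The groups overlapped and the gene was not called (-0.04 ± 0.20 on the log2 scale, ± SE; edgeR adjusted p = 0.893). Counts per symbol do not show whether a locus is disrupted, so this level does not check the knockout.

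With 4OHT for 2 h the new RNA of 7442 genes changed, 53.2% of those tested (edgeR quasi-likelihood test, Benjamini-Hochberg adjusted p under 0.05). Of these, 3693 rose (26.4% of genes tested) and 3749 fell (26.8%), and these shares are the background against which every gene list below is read. The rises and falls differed in shape. Falls were mostly moderate, with 1743 genes lower by at least 2-fold, 299 by at least 4-fold and 36 by at least 8-fold. Rises included many slight ones and a longer tail, with 936 genes higher by at least 2-fold, 318 by at least 4-fold and 117 by at least 8-fold.

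The 117 genes of the tail made up 0.131% and 0.144% of the counts with DMSO (clones b, c) against 1.81%, 1.83% and 1.86% with 4OHT (clones a, b, c) (counts outside the 14 loci). All genes that rose at least 2-fold went from 4.48% and 4.64% to between 12% and 12.1% of the counts. Those that fell at least 2-fold went from 6.53% and 6.42% to 2.08%, 2.09% and 1.98%. These genes were chosen for their change, so the shares are a description of its size. In both clones that the groups have in common, 3689 of the 3693 risen and 3744 of the 3749 fallen genes moved the same way. The 3 4OHT values lay wholly outside the 2 DMSO values for 3675 of the risen and 3738 of the fallen genes. Among all genes tested this held for 9644, which include 2231 of the 6543 genes not called. The risen and fallen genes were called on these same libraries, so their separation adds no separate evidence.

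**Figure D1:**
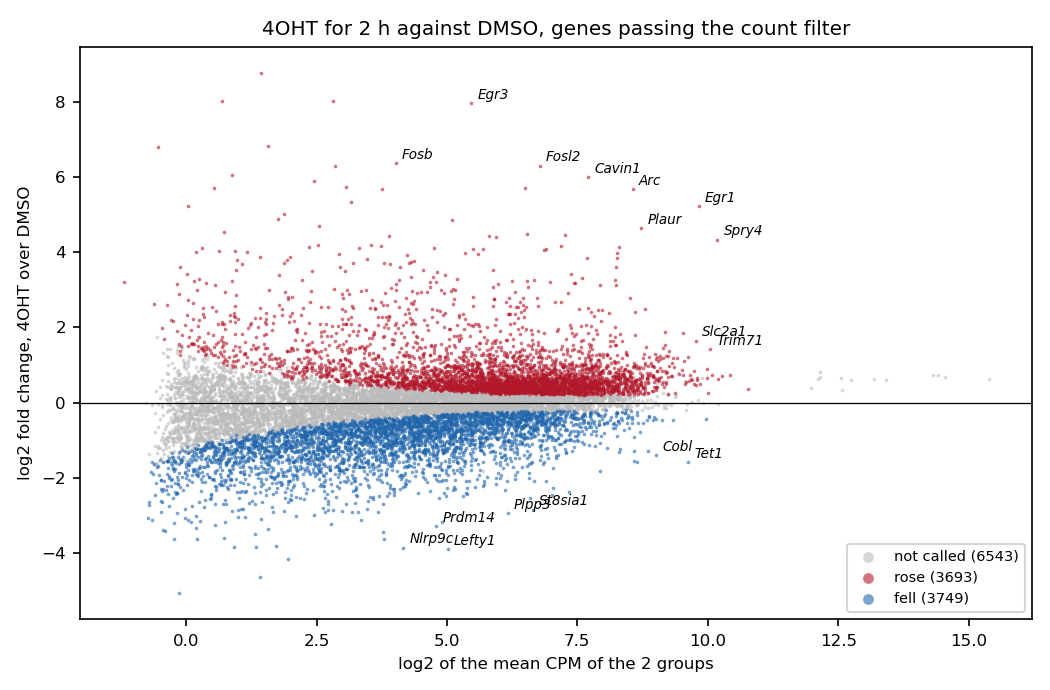
Log2 fold change (4OHT over DMSO) against log2 of the mean CPM for the 13985 genes tested, 1 point a gene. The 3693 genes that rose (red) extend above 6 on the log2 scale, while 3 of the 3749 that fell (blue) pass -4; the points at the far right are the loci of very high counts, none of which was called.

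The split between rises and falls depended on the scaling. TMM scaling assumes that most genes do not change. Scaled by library totals alone, the median over all genes moved from -0.02 to -0.31 (log2), and 1342 genes rose and 5004 fell (21.1% of 6346 called rose, against 49.6%). Changes are therefore given relative to the median gene. Precision followed depth: the median SE of a log2 fold change was 0.43 for the 2387 genes with a mean below 30 counts a library and 0.09 for the 2465 genes with 1000 or more. The first group had 170 rises and 571 falls and the second 1375 rises and 353 falls, so direction also differed with depth.

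Of 15 feedback inhibitors of receptor and RAS signalling tested, 9 rose and 3 fell, with a median log2 fold change of 0.72 beside -0.02 for all genes. Spry4, a Sprouty protein that inhibits receptor signalling upstream of RAF (chromosome 18, 38586247 to 38601415, ENSMUSG00000024427.7; positions are mm10 from GENCODE), had 103 and 116 CPM with DMSO (clones b, c) against 2086, 2199 and 2355 CPM with 4OHT (clones a, b, c). The groups lay far apart, and Spry4 rose 20.2-fold (log2 4.34 ± 0.12; edgeR adjusted p = 3.54e-11). Outside the 14 high-count loci it gained more CPM than any other gene tested. Spred1, a Sprouty-related inhibitor that brings neurofibromin to RAS, had 150.3 and 142 CPM in the DMSO libraries and 425, 393 and 424 CPM in the 4OHT libraries, a 2.83-fold rise. Il17rd (Sef), which holds back ERK signalling, rose by 0.72 ± 0.11 (log2), a call lost with library totals, and Errfi1 (Mig-6), an inhibitor of the EGF receptor, by 1.29 ± 0.12. Spred3 (which overlaps Ggn) rose by 1.51 ± 0.18, and Rasa2, a RAS GTPase-activating protein, by 0.99 ± 0.12.

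The inhibitors did not move as a block. Spred2 stood at 233 and 221 CPM in the DMSO libraries and 243, 229 and 226 CPM in the 4OHT libraries and was not called (0.04 ± 0.08). Spry1 (overlapping Gm42922) was not called either (-0.22 ± 0.18), and Spry2 rose by 0.44 ± 0.10, a call that was lost with library totals and without DMSO b (log2 0.33, edgeR adjusted p = 0.059). Lrig3 and Lrig1 encode transmembrane proteins, and Lrig1 is known to restrain receptor tyrosine kinases. Lrig3 fell from 157 and 139.7 CPM in the DMSO libraries to 40.4, 44.4 and 38.1 CPM in the 4OHT libraries (log2 -1.86 ± 0.10; edgeR adjusted p = 1.12e-08). Lrig1, which overlaps Slc25a26, fell by 2.47-fold, so members of 1 functional list moved in opposite directions with groups that did not overlap.

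MAP kinase phosphatases remove the activating phosphates from ERK, JNK or p38. Of 10 tested, 6 rose, 4 were not called and none fell, with a median log2 fold change of 1.69. Dusp6, the cytoplasmic phosphatase most specific for ERK (chromosome 10, 99263231 to 99267489, ENSMUSG00000019960.8), had 67.7 and 80.2 CPM with DMSO (clones b, c) against 262, 253 and 279 CPM with 4OHT (clones a, b, c). Its groups did not overlap, and it rose 3.58-fold (edgeR adjusted p = 1.12e-08). Of the nuclear phosphatases, Dusp5 (chromosome 19, 53529109 to 53542431, ENSMUSG00000034765.6) had 8.05 and 7.57 CPM with DMSO (clones b, c) against 174, 187 and 169 CPM with 4OHT (clones a, b, c), 22.6-fold higher (log2 4.50 ± 0.12; edgeR adjusted p = 2.11e-11). Dusp4 had 19.0 and 18.6 CPM in the DMSO libraries and 115, 115 and 132 CPM in the 4OHT libraries, a 6.42-fold rise. Dusp1, which overlaps Ergic1, rose 5.15-fold, and Dusp16, which favours JNK and p38, rose 2.89-fold from 168 and 145 CPM to 463, 437 and 454 CPM. Dusp2 had 0 and 1 counts in the DMSO libraries and 3.51, 3.94 and 3.46 CPM in the 4OHT libraries, so no fold is given. It passed the count filter through the 4OHT libraries alone, so it was tested only because it was higher there. Dusp7, Dusp8, Dusp9 and Dusp10 were not called, with values from -0.49 to 0.28 on the log2 scale and SEs from 0.19 to 0.68.

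Promoters of Fosb, Fosl2, Dusp2, Dusp5, Fos and Nab1, chosen among the largest rises of the early response lists, were examined for CArG, CREB, AP-1, ETS, EGR and TATA motifs. The search took exact letter patterns only (CCGGAA for ETS and TGACGTCA for CREB), in the promoter windows described below. No such pattern was found in the windows of Fosb, Fosl2 and Dusp2. The Nab1 window held EGR motifs and that of Fos a TATA box. Variant sites and sites further upstream were not searched for, so a missing pattern does not show that the promoter lacks the element. The Dusp5 promoter shows a pair of adjoining CArG boxes, the element that SRF binds. The stretch below is the part of the RefSeq promoter window (GRCm38.p6) upstream of every annotated Dusp5 start, chr19:53528895-53529108 on the plus strand, and the capitals mark the CArG boxes at -82 to -73 and -72 to -63 from the RefSeq start.
Dusp5: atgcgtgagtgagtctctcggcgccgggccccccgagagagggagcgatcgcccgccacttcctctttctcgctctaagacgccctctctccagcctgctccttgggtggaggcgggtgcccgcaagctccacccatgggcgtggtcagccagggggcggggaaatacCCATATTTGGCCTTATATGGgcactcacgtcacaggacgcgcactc

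**Figure D2:**
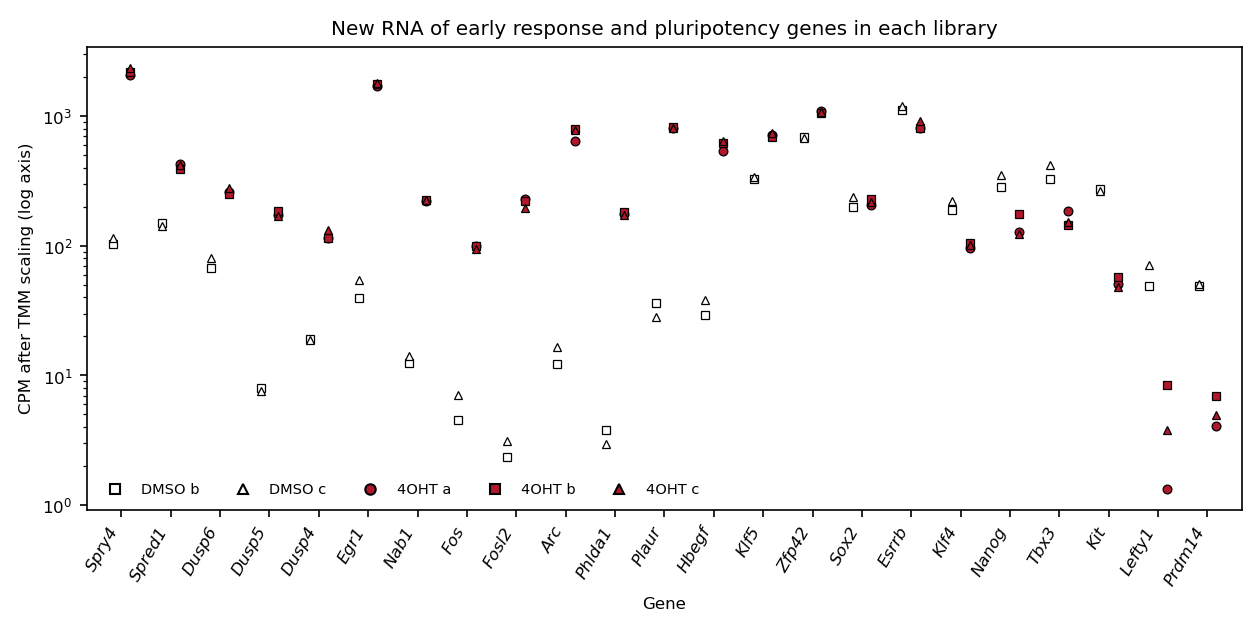
CPM (log axis) of 23 genes in each of the 5 libraries; open symbols are DMSO, filled symbols 4OHT, and the shape gives the clone. From Spry4 to Zfp42 the filled symbols lie above the open ones, Sox2 overlaps, and from Esrrb to Prdm14 they lie below; CPM are not per length, so heights are compared within a gene only.

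EGR factors and their NAB corepressors rose without exception among those tested, 5 of 5, with a median log2 fold change of 4.08. Egr1, a zinc finger factor of the immediate early class (chromosome 18, 34859823 to 34864984, ENSMUSG00000038418.7), had 39.6 and 55.0 CPM with DMSO (clones b, c) against 1725, 1769 and 1808 CPM with 4OHT (clones a, b, c). It rose 37.4-fold (log2 5.23 ± 0.15; edgeR adjusted p = 3.77e-11), and the lowest 4OHT library stood far above both DMSO libraries. Egr3 had 1 and 7 counts with DMSO, or 0.0789 and 0.623 CPM, and 89.6, 96.5 and 77.1 CPM in the 4OHT libraries. It thus went from near the floor of 3 counts to a well-measured level, and no fold is given. Egr3 passed the count filter through the 4OHT libraries alone, so its place among the 5 depended on the rise. Egr2 rose 5.03-fold from 1.42 and 1.60 CPM to 6.74, 7.89 and 8.37 CPM. The NAB proteins bind EGR factors and repress their activity. Nab1 (chromosome 1, 52457294 to 52500679, ENSMUSG00000002881.14) had 12.4 and 14.3 CPM with DMSO (clones b, c) against 221, 227 and 224 CPM with 4OHT (clones a, b, c), 16.9-fold higher (edgeR adjusted p = 2.13e-11), and Nab2, whose counts overlap Nemp1 and Stat6, rose 16.6-fold. Egr4 was below the count filter, with 2 to 4 counts in each library.

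AP-1 is a dimer of FOS and JUN family proteins, and small MAF proteins are related basic leucine zipper factors. Of 12 members tested, 9 rose, 3 were not called and none fell, with a median log2 fold change of 2.04. Fosl2 had the largest rise of any gene that had at least 10 counts in each of the 5 libraries. It (chromosome 5, 32135801 to 32157842, ENSMUSG00000029135.10) had 2.37 and 3.12 CPM with DMSO (clones b, c) against 231, 222 and 197 CPM with 4OHT (clones a, b, c), a 79.2-fold rise (log2 6.31 ± 0.15; edgeR adjusted p = 1.75e-11). Fos (chromosome 12, 85473890 to 85477273, ENSMUSG00000021250.13) had 4.50 and 7.13 CPM with DMSO (clones b, c) against 99.9, 99.7 and 93.8 CPM with 4OHT (clones a, b, c), 16.9-fold higher. Fosl1, which overlaps Ccdc85b, rose 15.5-fold, and Fosb went from 3 and 6 counts in the DMSO libraries to 32.8, 31.1 and 32.4 CPM in the 4OHT libraries. Fosb passed the count filter through the 4OHT libraries alone. The JUN members had smaller fitted rises, a difference that was not tested. Junb (overlapping Prdx2) rose 8.49-fold and Jun 2.86-fold, from 12.2 and 14.5 CPM to 30.01, 45.7 and 39.7 CPM, while Jund had 10.4 and 17.4 CPM in the DMSO libraries and 12.8, 26.1 and 22.2 CPM in the 4OHT libraries and was not called (log2 0.53 ± 0.33). Of the small MAF genes, Maff rose 5.94-fold, Mafk (overlapping Tmem184a) 2.77-fold and Mafg (overlapping Sirt7) 1.46-fold, the last a call lost with library totals. Atf3, a stress-induced partner of AP-1 factors, was not called (-0.19 ± 0.34).

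The promoter of Fos carries a TATA box close to its start, shown because its share among the strongest risers is given next. The stretch is chr12:85473640-85473889 on the plus strand (RefSeq, GRCm38.p6), it ends at the base before the start, and capitals mark TATAAA at -33 to -28.
Fos: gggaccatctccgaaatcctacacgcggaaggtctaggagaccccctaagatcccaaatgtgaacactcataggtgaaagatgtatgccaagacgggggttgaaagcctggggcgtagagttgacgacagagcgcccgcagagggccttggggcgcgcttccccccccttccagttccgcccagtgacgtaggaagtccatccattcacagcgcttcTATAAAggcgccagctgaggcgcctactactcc

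Motifs were searched on both strands of 300-base RefSeq promoter windows (250 bases before and 50 after the start). For each gene the RefSeq start nearest the GENCODE start was used, with no limit on distance. Some windows thus lie far from the GENCODE start, 671 bases for Fosl2 and 92986 for Abcb1a. The motif shares are given for all genes tested and for those that rose at least 2-fold and at least 8-fold. A CArG box can contain TATAAA, so the shares of these 2 motifs are not fully separate. TATAAA was found in 6.9% of the 10682 promoters of genes tested, in 10.4% of 682 promoters of genes that rose at least 2-fold and in 18.5% of 81 that rose at least 8-fold. It was found in 6.68% of the 1272 promoters of genes that fell at least 2-fold. The AP-1 motif TGANTCA was found in 4.76%, 8.65% and 13.6% of the same sets of all and risen genes and in 4.95% of the fallen genes. CArG boxes were rare, at 1.32%, 2.2% and 3.7% (3 of 81), and the fallen genes had a share of 1.97%, close to that of the genes that rose at least 2-fold. The EGR motif GCGTGGGCG did not follow the size of the rise, with 1.25%, 2.35% and 1.23%, and 0.865% in the fallen genes. CCGGAA, a core bound by ETS factors, went the other way, with 26.8% of all promoters, 20.2% of those that rose at least 2-fold and 4.94% of those that rose at least 8-fold. It was most frequent, at 36.1%, in the 2209 promoters of genes that rose by less than 2-fold, and stood at 13.9% in those of genes that fell at least 2-fold. Other motifs were searched too. In all genes and those risen at least 2-fold and 8-fold, TGACGTCA had 3.11%, 2.79% and 1.23%, and CACGTG 10.1%, 10.7% and 11.1%. CCAAT had 38.5%, 34.0% and 27.2%, and GGGCGG 63.9%, 70.7% and 59.3%. The genes that fell at least 2-fold had 2.04%, 8.18%, 36.2% and 58.3% for these motifs in turn. All these are shares of letters in a window, chosen after the change was measured and given without a test.

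ETS factors include nuclear targets of ERK and genes that ERK signalling maintains in embryonic stem cells. Of 14 tested, 10 rose and 3 fell, with a median log2 fold change of 0.46. Etv4, a member of the PEA3 group, had 14.99 and 16.1 CPM with DMSO (clones b, c) against 51.9, 50.6 and 47.8 CPM with 4OHT (clones a, b, c). It rose 3.22-fold (log2 1.69 ± 0.12; edgeR adjusted p = 1.64e-07), and the groups were well apart. Etv5 of the same group had 365 and 350.2 CPM in the DMSO libraries and 565, 548 and 562 CPM in the 4OHT libraries (0.64 ± 0.08 on the log2 scale, lost with library totals). Ets1 rose 3.10-fold from 3.63 and 3.47 CPM to 13.9, 9.53 and 9.38 CPM. Erf, an ETS repressor that ERK phosphorylates, rose 2.06-fold, and Elf1, which overlaps Wbp4, 1.94-fold. The ternary complex factors that partner SRF moved apart: Elk4 (overlapping Mfsd4a) rose by 0.74 ± 0.11, Elk3 (overlapping Cdk17) fell by 1.80-fold, and Elk1 (overlapping Uxt) had -0.06 ± 0.18 and was not called. With library totals 5 of the 14 rose.

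Further early response genes rose in 17 of 23 tested, with 2 falls and a median log2 fold change of 1.36. Arc, known from neurons as an activity-regulated cytoskeletal gene (chromosome 15, 74669083 to 74672570, ENSMUSG00000022602.14), had 12.2 and 16.7 CPM with DMSO (clones b, c) against 642, 801 and 784 CPM with 4OHT (clones a, b, c). Its 51.6-fold rise (log2 5.69 ± 0.16; edgeR adjusted p = 3.65e-10) was among the 5 largest of genes with 10 counts in every library. Klf10, a zinc finger factor of the TGF-beta early class, had 27.2 and 43.2 CPM in the DMSO libraries and 314, 368 and 371 CPM in the 4OHT libraries, 10-fold higher. The orphan nuclear receptor Nr4a1 rose 5.86-fold from 25.7 and 27.3 CPM to 145, 168 and 154 CPM. Ier5l rose 4.58-fold, Trib1, a pseudokinase, 4.41-fold and Zfp36, which destabilises AU-rich mRNAs, 4.36-fold. Myc had 19.3 and 25.03 CPM in the DMSO libraries and 62.4, 68.4 and 51.8 CPM in the 4OHT libraries and rose 2.75-fold (log2 1.46 ± 0.15; edgeR adjusted p = 3.59e-06). Klf6 rose 3.84-fold and Bhlhe40 3.90-fold. Mcl1, an anti-apoptotic BCL2 protein, had 282 and 304 CPM in the DMSO libraries and 551, 623 and 598 CPM in the 4OHT libraries, 2.02-fold higher. Btg2, Gadd45b, Tnfaip3 and Rhob, which belong to the same class in many cells, were not called, with log2 values of 0.12, 0.47, -0.25 and -0.42. Csrnp1 is listed at 0 in all 5 libraries. Of the 2 falls, that of Nr4a2 was lost without DMSO b, DMSO c or 4OHT c and that of Btg1 without DMSO c or 4OHT b.

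Of 19 secreted ligands tested, 9 rose and 5 fell, with a median log2 fold change of 0.02 beside -0.02 for all genes. Hbegf, an EGF-family ligand that activates the EGF receptor (chromosome 18, 36504927 to 36515805, ENSMUSG00000024486.6), had 29.4 and 38.1 CPM with DMSO (clones b, c) against 535, 622 and 639 CPM with 4OHT (clones a, b, c). It rose 17.8-fold (log2 4.15 ± 0.13; edgeR adjusted p = 1.94e-10). Vgf, a secreted neuropeptide precursor, went from 1.66 and 0.713 CPM to 22.3, 23.0 and 21.4 CPM, and Wnt7b from 10.8 and 8.55 CPM to 67.9, 59.0 and 51.9 CPM (6.14-fold). Vgf would not have passed the count filter without the 4OHT libraries. Pdgfa rose 2.78-fold, Nrg1 2.12-fold and Bmp4, which overlaps Gm15217, 4.06-fold. Fgf4, the ligand through which embryonic stem cells stimulate their own ERK, moved the other way. It had 196 and 235 CPM in the DMSO libraries and 89.1, 97.0 and 89.0 CPM in the 4OHT libraries, a 2.36-fold fall (log2 -1.24 ± 0.10; edgeR adjusted p = 2.96e-07). Lif fell 2.27-fold from 10.3 and 10.6 CPM to 4.46, 5.92 and 3.68 CPM and Egf 1.79-fold. The EGF-family genes Areg, Ereg, Epgn and Btc were below the count filter.

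Of 21 receptors tested, 10 fell and 6 rose, with a median log2 fold change of -0.31. Kit, the receptor for stem cell factor (chromosome 5, 75574916 to 75656722, ENSMUSG00000005672.12), had 276 and 264 CPM with DMSO (clones b, c) against 50.4, 57.5 and 48.2 CPM with 4OHT (clones a, b, c). It fell 5.21-fold (log2 -2.38 ± 0.09; edgeR adjusted p = 6.55e-10), and no library of 1 group came near the other. Lifr, the receptor subunit for LIF, had 245 and 236 CPM in the DMSO libraries and 93.4, 103 and 99.7 CPM in the 4OHT libraries, 2.44-fold lower. Epha4 fell 2.77-fold, Egfr 2.16-fold, Igf1r 1.83-fold and Fgfr1, a target of PD173074, 1.83-fold. Epha2 rose 2.14-fold from 426 and 526 CPM to 962, 1074 and 1019 CPM, and Erbb3 rose 2.53-fold. Fgfr2 is one of the 14 loci with very high counts, so its value says nothing of the receptor. Without DMSO b 3 of the 21 rose.

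Of 27 kinases, GTPases and adaptors of the pathway itself, 16 rose and 2 fell, with a median log2 fold change of 0.44, and with library totals 6 of the 27 rose. Braf (overlapping Ndufb2) rose 2.13-fold and Nras 1.76-fold. The ERK-activated kinase gene Rps6ka3 (RSK2) had 54.9 and 47.2 CPM in the DMSO libraries and 136, 121 and 109.9 CPM in the 4OHT libraries, 2.39-fold higher, whereas Rps6ka2 (RSK3) had 113 and 109.9 CPM in the DMSO libraries and 48.4, 48.1 and 50.2 CPM in the 4OHT libraries, 2.28-fold lower. The 2 RSK genes were thus separated in opposite directions with no overlap of libraries. The scaffold Ksr1, which brings RAF and MEK together, fell 2.48-fold from 42.9 and 44.0 CPM to 18.9, 15.9 and 17.3 CPM. The exchange factors Sos1 (overlapping Arhgef33) and Sos2 were not called (-0.09 and -0.03).

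Genes of the actin cytoskeleton and targets of SRF and its MRTF cofactors rose in 16 of 23 tested and fell in 2, with a median log2 fold change of 0.76. Pdlim7, a PDZ and LIM protein of actin filaments, had 27.3 and 27.2 CPM in the DMSO libraries and 143, 159 and 149 CPM in the 4OHT libraries, 5.51-fold higher (log2 2.46 ± 0.10; edgeR adjusted p = 9.53e-10). Tagln2, an actin-binding protein, rose 4.02-fold, the LIM protein gene Fhl2 3.89-fold, Zyx (overlapping Epha1) 2.97-fold and Msn, which links actin to the membrane, 2.92-fold. Lima1, another actin-binding LIM protein, went against the list, from 209 and 226 CPM in the DMSO libraries to 29.6, 48.0 and 43.3 CPM in the 4OHT libraries (5.47-fold lower). Tpm1 fell 1.90-fold. Ctgf and Vcl (overlapping Ap3m1), known as SRF or YAP targets, were not called (0.22 and 0.20). Actb had 370.4 and 408 CPM in the DMSO libraries and 645, 1258 and 780.5 CPM in the 4OHT libraries. Its highest value was in 4OHT b, the library rich in the 14 loci, and its call (1.20 ± 0.34; edgeR adjusted p = 0.0431) held without that library (0.87 on the log2 scale) and was lost without either DMSO library.

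The urokinase receptor gene Plaur and the pleckstrin-homology gene Phlda1 rose strongly. Plaur (chromosome 7, 24462484 to 24475968, ENSMUSG00000046223.10) had 36.4 and 28.4 CPM with DMSO (clones b, c) against 809, 821 and 811 CPM with 4OHT (clones a, b, c), 25.1-fold higher (log2 4.65 ± 0.12; edgeR adjusted p = 1.97e-11). Phlda1 (chromosome 10, 111506286 to 111508645, ENSMUSG00000020205.8) had 3.79 and 2.94 CPM with DMSO (clones b, c) against 175, 183 and 172 CPM with 4OHT (clones a, b, c), 52.0-fold higher. In both the groups were far apart and the 3 4OHT libraries nearly alike. Their list, which also holds BCL2-family genes, had 9 rises and 3 falls of 15 tested (1 fall without DMSO b, DMSO c or 4OHT c) and a median of 0.78. Among pro-apoptotic BH3-only genes the directions were mixed. Hrk rose 4.85-fold and Bcl2l11 (Bim) 1.52-fold (the latter lost with library totals), Bmf fell 2.74-fold and Bbc3 was not called (-0.17).

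Naive pluripotency genes went in both directions within 2 h. Of 23 tested, 8 rose and 10 fell, with a median log2 fold change of -0.14. Prdm14, a PR-domain factor that protects the naive state (chromosome 1, 13113457 to 13127163, ENSMUSG00000042414.7), had 48.9 and 51.2 CPM with DMSO (clones b, c) against 4.08, 6.90 and 4.91 CPM with 4OHT (clones a, b, c). It fell 9.76-fold (log2 -3.29 ± 0.17; edgeR adjusted p = 1.08e-08). Nanog (chromosome 6, 122707489 to 122714633, ENSMUSG00000012396.12) had 284 and 349 CPM with DMSO (clones b, c) against 128, 176 and 124 CPM with 4OHT (clones a, b, c). It fell 2.23-fold (edgeR adjusted p = 0.000284), with all 4OHT libraries below both DMSO libraries. Tbx3 had 329.7 and 418 CPM in the DMSO libraries and 185, 145 and 152 CPM in the 4OHT libraries (2.32-fold lower). Klf4 had 188 and 222 CPM in the DMSO libraries and 96.3, 105 and 101 CPM in the 4OHT libraries (2.03-fold lower), and Klf2 fell 2.11-fold. Tfcp2l1 fell 2.44-fold and Fbxo15, which overlaps Timm21, 3.55-fold. Esrrb fell least among the called factors, from 1115 and 1191 CPM to 814, 814 and 912 CPM (1.36-fold).

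Other naive markers rose in the same libraries. Klf5 had 328 and 343 CPM in the DMSO libraries and 722, 697 and 747 CPM in the 4OHT libraries, 2.15-fold higher (log2 1.11 ± 0.08; edgeR adjusted p = 1.93e-07), so Klf2 and Klf4 moved against Klf5. Zfp57, a zinc finger protein that maintains imprints, rose 2.59-fold from 348 and 334 CPM to 879, 873 and 892 CPM, and Manba rose 2.46-fold. Zfp42 (Rex1) had 696 and 682 CPM in the DMSO libraries and 1103, 1055 and 1087 CPM in the 4OHT libraries, a 1.57-fold rise that was lost with library totals, as were those of Dppa2, Dppa4 and Mras, and with that scaling 4 of the 23 rose. Nr0b1 and Nr5a2 were not called (-0.14 and 0.09).

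Core pluripotency genes had 4 rises and 4 falls of 13 tested and a median of 0.00. Sox2 had 200.3 and 238 CPM in the DMSO libraries and 208, 231 and 219 CPM in the 4OHT libraries, and the groups overlapped (log2 0.00 ± 0.09; edgeR adjusted p = 0.989). Tdgf1, the Nodal co-receptor Cripto, fell 1.84-fold from 383 and 407 CPM to 211, 238 and 197 CPM, Sall1 fell 1.84-fold and Tcf7l1, a repressor of Wnt targets (overlapping 4 predicted genes), 1.59-fold. Pou5f1 had 148 and 158 CPM in the DMSO libraries and 183, 295 and 228 CPM in the 4OHT libraries and was highest in 4OHT b. Its call (0.62 ± 0.18; edgeR adjusted p = 0.0246) was lost without either DMSO library and held without 4OHT b at 0.42 on the log2 scale. The count of rises in the core list depended on the fit and was between 0 and 2 with library totals, with all 17 libraries in the fit, without either DMSO library or without 4OHT c.

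Formative and primed epiblast genes had 7 rises and 3 falls of 16 tested, with a median of 0.46. Pou3f1 (Oct6), a POU factor of the primed epiblast, went from 1.499 and 1.43 CPM in the DMSO libraries to 22.0, 21.9 and 18.3 CPM in the 4OHT libraries (14.0-fold). The de novo methyltransferase gene Dnmt3a had 30.4 and 28.6 CPM in the DMSO libraries and 131, 120.5 and 129 CPM in the 4OHT libraries, 4.31-fold higher (log2 2.11 ± 0.10; edgeR adjusted p = 3.75e-09), while its partner Dnmt3b overlapped between groups (0.34, not called). Sox4 rose 3.52-fold and Cdh2 (N-cadherin) 2.08-fold. Otx2, which opens enhancers of the formative state, fell 1.60-fold from 23.6 and 25.1 CPM to 12.4, 16.6 and 17.1 CPM (it overlaps Gm49154), and Foxd3 fell 1.91-fold. Fgf5, with 3 to 27 counts a library, was not called.

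Markers of primitive endoderm, the lineage that sustained FGF-ERK signalling specifies in the blastocyst, had 2 rises and 7 falls of 13 tested, with a median of -0.27. Gata6 had 1.74 and 1.96 CPM in the DMSO libraries and 2.56, 1.64 and 1.34 CPM in the 4OHT libraries and Gata4 2.84 and 3.65 CPM in the DMSO libraries and 5.03, 3.29 and 3.68 CPM in the 4OHT libraries, so both factors stayed at a few CPM with overlapping groups. Those that fell included the basement membrane genes Lama1, from 253 and 228 CPM to 104, 118 and 98.5 CPM (2.25-fold), and the adjoining Col4a1 and Col4a2, whose annotated spans overlap (2.45-fold and 2.85-fold). Dab2, an endocytic adaptor, fell 3.83-fold. The rises were Sparc (4.14-fold) and Lamb1 (3.05-fold). Without DMSO b 4 members fell. Of 14 primitive streak and mesoderm genes, 8 were below the filter, T, Mixl1 and Gsc among them, and 2 of the 6 tested rose. Evx1 went from 0.631 and 0.534 CPM to 3.42, 2.96 and 2.57 CPM. Fgf8 had 2 counts in each DMSO library and 1.23, 1.31 and 2.23 CPM in the 4OHT libraries. Both passed the filter through the 4OHT libraries alone and were tested only because they were higher there, so the count of 2 rises says nothing of the list.

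Nodal signalling through SMAD2 and SMAD3 has its own feedback inhibitors. Of 16 genes tested in this list, 9 fell and 6 rose, with a median log2 fold change of -0.67. Lefty1, a secreted Nodal antagonist (chromosome 1, 180935022 to 180938400, ENSMUSG00000038793.8), had 49.2 and 71.1 CPM with DMSO (clones b, c) against 1.33, 8.38 and 3.79 CPM with 4OHT (clones a, b, c). All 3 4OHT libraries lay below both DMSO libraries, and the fall was 14.9-fold (log2 -3.90 ± 0.57; edgeR adjusted p = 0.00507). Lefty2 had 65.4 and 93.7 CPM in the DMSO libraries and 10.2, 36.0 and 23.9 CPM in the 4OHT libraries and missed the threshold (-1.83 ± 0.56; edgeR adjusted p = 0.0636). Smad6, an inhibitory SMAD of the BMP branch, fell 3.46-fold, whereas the other inhibitory SMAD, Smad7, had 501 and 543 CPM in the DMSO libraries and 873, 849 and 915 CPM in the 4OHT libraries, 1.68-fold higher. Skil (SnoN), a SMAD corepressor (chromosome 3, 31095058 to 31122577, ENSMUSG00000027660.16), had 76.9 and 73.5 CPM in the DMSO libraries and 351, 391 and 380.2 CPM in the 4OHT libraries, 4.97-fold higher (log2 2.31 ± 0.09; edgeR adjusted p = 6.78e-10). The ID genes, BMP targets that encode inhibitors of basic helix-loop-helix factors, split: Id1 rose 15.7-fold from 4.97 and 4.81 CPM to 76.8, 81.8 and 72.2 CPM and Id3 2.37-fold, while Id2 fell 1.84-fold and Id4 2.54-fold.

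In the LIF and STAT3 list 6 of 14 rose and 3 fell (1 without DMSO c), with a median of 0.10. Stat3 and its target Socs3 were not called, with 75.4 and 96.6 CPM in the DMSO libraries and 74.2, 81.7 and 82.0 CPM in the 4OHT libraries for Socs3. Jak1 (overlapping Raver2) rose 2.26-fold, Jak2 2.41-fold and the kinase gene Pim1 3.94-fold, from 57.7 and 77.3 CPM to 233, 293 and 271 CPM. The fall of Lifr is given above.

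Genes of cell growth and of the transcription machinery shifted by small amounts in many members. Ribosome biogenesis genes rose in 25 of 30 tested with no fall, at a median log2 fold change of 0.48. Ddx21, a nucleolar helicase, had 169 and 159.7 CPM in the DMSO libraries and 285, 360.0 and 322 CPM in the 4OHT libraries, 1.96-fold higher (log2 0.97 ± 0.10; edgeR adjusted p = 4.2e-06). Rrp12 rose 1.93-fold, Ubtf, the RNA polymerase I factor UBF, 1.85-fold and Heatr1 (overlapping Lgals8) 1.82-fold. With library totals 5 of the 30 rose, so most of these calls depend on the scaling. The P-TEFb and elongation list had 19 rises and 2 falls of 34 tested, with a median of 0.31. Ccnc, the cyclin of the Mediator kinase module (overlapping Tstd3), rose 2.52-fold, Aff4, the super elongation complex scaffold, 1.96-fold from 327 and 295 CPM to 652, 608 and 569 CPM, and Cdk9, the P-TEFb kinase, 1.70-fold. Mllt3 fell 3.06-fold. With library totals 6 of the 34 rose, and without DMSO b 11 did.

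Cholesterol synthesis genes rose in 16 of 21 tested and fell in 2, with a median log2 fold change of 0.74. With library totals 10 rose, without either DMSO library none fell, and without 4OHT a or c 1 fell. Hmgcs1, the HMG-CoA synthase of the pathway, had 105 and 118 CPM in the DMSO libraries and 250.1, 392 and 329 CPM in the 4OHT libraries, 2.90-fold higher (log2 1.53 ± 0.18; edgeR adjusted p = 0.000205). Cyp51 (overlapping Akap9) rose 2.58-fold, Idi1 (overlapping Gm48574) 2.42-fold and Msmo1 2.29-fold. Mvk, Fdps and Dhcr7 were not called, and Mvd is listed at 0 in all 5 libraries.

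Markers of other cell types were also examined. Of 12 fibroblast markers 8 were below the filter, Col1a1, Col1a2 and Thy1 among them. The summed level of the 4 tested was 531 to 591 CPM in the DMSO libraries and 188 to 320.1 CPM in the 4OHT libraries, nearly all of it Fn1. Of the 4, Fn1 and Pdgfrb fell (1 of them without either DMSO library) and Twist1 rose. Twist1 had 5 and 7 counts in the DMSO libraries and 7.79, 6.90 and 7.70 CPM in the 4OHT libraries, and passed the filter through the latter alone. Of 12 trophoblast markers 8 were tested, and 3 rose, among them Tead4, with 113 and 124 CPM in the DMSO libraries and 533, 439 and 469 CPM in the 4OHT libraries. Cdx2, which also rose, had 1 and 0 counts with DMSO and 8.83, 3.62 and 5.36 CPM in the 4OHT libraries. It passed the filter through the 4OHT libraries alone, so it was tested only because it was higher there. The summed level of the 8 went from 150.4 to 165 CPM in the DMSO libraries to 483 to 575 CPM in the 4OHT libraries, most of it Tead4, and Krt7, Hand1 and Ascl2 were below the filter. Of 12 neural markers 4 were tested. Nes rose 4.87-fold from 3.55 and 5.61 CPM, Map2 fell 3.23-fold, Pax6 fell (a call lost without DMSO b), Sox1 was not called and Tubb3 and Neurod1 are listed at 0. Their summed level was 38.4 to 50.2 CPM in the DMSO libraries and 33.9 to 44.4 CPM in the 4OHT libraries. Of 8 genes listed for 2-cell-like cells 2 were tested: Eif1a rose 1.45-fold, a call lost with library totals, and Zscan4d was not called. Eif1a encodes a translation initiation factor and is not particular to such cells. The part of such cells in the results was not tested. In bulk RNA, a change in the number of cells that express a gene and a change in RNA per cell cannot be told apart.

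**Figure D3:**
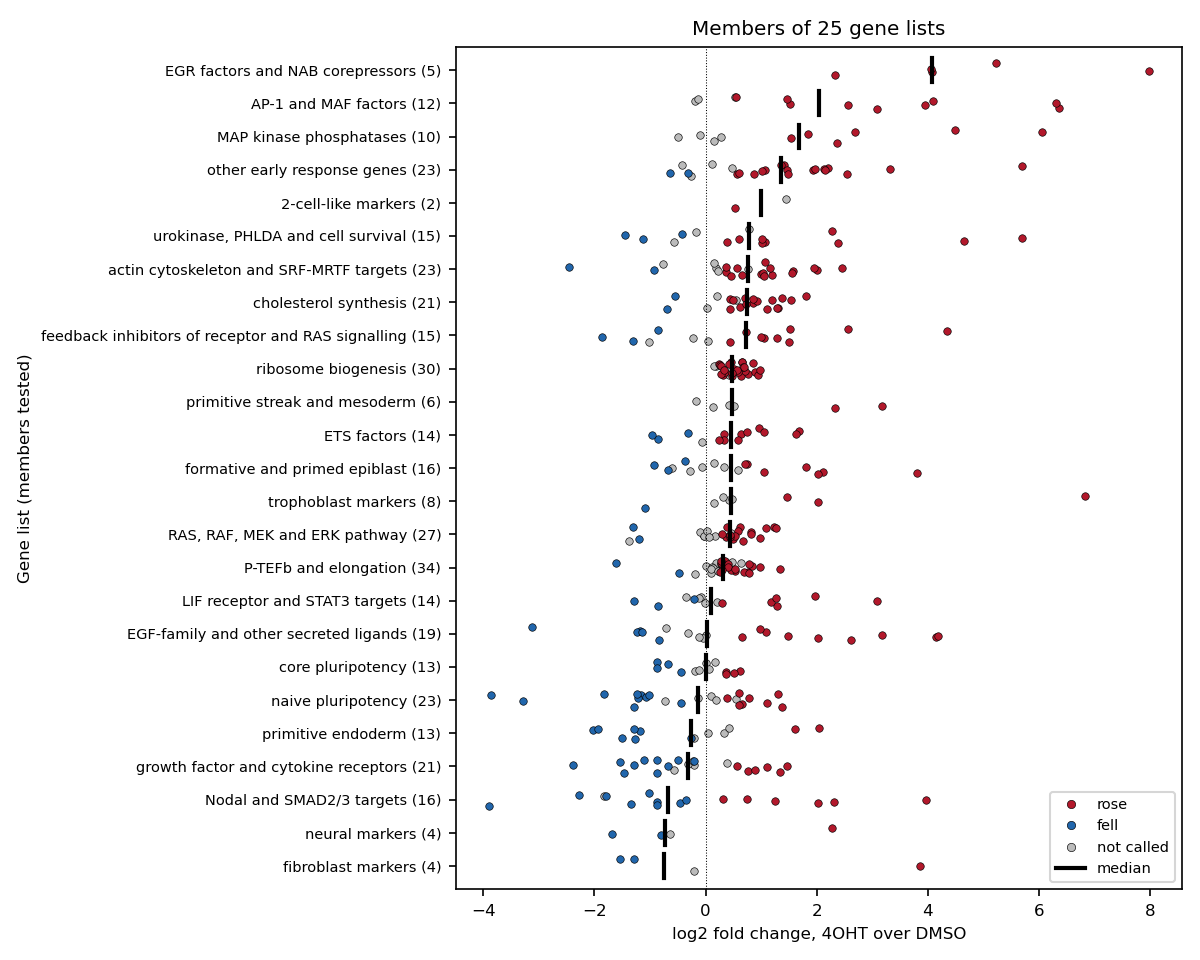
Log2 fold change (4OHT over DMSO) of each tested member of 25 gene lists, ordered by the list median (black bar); red members rose, blue fell and grey were not called. The EGR and NAB, AP-1 and MAF, and MAP kinase phosphatase lists hold no fall and have medians of 4.08, 2.04 and 1.69, while ribosome biogenesis genes lie within a narrow range around 0.48.

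Outside the lists, the largest rises among genes with at least 10 counts in every library included genes of other functions. Cavin1, a coat protein of caveolae (chromosome 11, 100956733 to 100970887, ENSMUSG00000004044.9), had 5.37 and 7.39 CPM with DMSO (clones b, c) against 397, 409 and 422 CPM with 4OHT (clones a, b, c), 64.4-fold higher (log2 6.01 ± 0.13; edgeR adjusted p = 1.75e-11). S100a6, a calcium-binding protein, rose 28.8-fold from 2.37 and 2.23 CPM to 59.5, 66.4 and 73.9 CPM. Pla2g7, a secreted phospholipase, had 12.9 and 13.4 CPM in the DMSO libraries and 304, 270.3 and 304 CPM in the 4OHT libraries, 22.2-fold higher. Ptprn, a protein of secretory granules, rose 21.8-fold, Efr3b, which anchors a lipid kinase at the membrane, 21.3-fold, and Gsg1, which overlaps Fam234b, 21.8-fold. In all 6 the 3 4OHT libraries lay above both DMSO libraries.

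By gain in CPM, an absolute measure that favours long and abundant transcripts, further genes came to the front. Slc2a1, the glucose transporter GLUT1 (chromosome 4, 119108711 to 119137983, ENSMUSG00000028645.11), had 419.6 and 426 CPM with DMSO (clones b, c) against 1269, 1309.7 and 1398 CPM with 4OHT (clones a, b, c), a 3.13-fold rise (edgeR adjusted p = 1.51e-08). Brd2, a bromodomain protein that overlaps H2-DMa, rose 3.62-fold from 297 and 342 CPM to 1065, 1214 and 1188 CPM. Trim71 (Lin41), a target of let-7 miRNAs (overlapping C130032M10Rik), rose 2.70-fold, Ahnak 3.67-fold, Ctnna1, the alpha-catenin of adherens junctions (overlapping Lrrtm2), 2.34-fold and Jade1 1.66-fold, the last a call lost with library totals.

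The falls named here are the largest among genes with at least 10 counts in every library, and some genes of lower counts had larger or similar fitted falls. Nlrp9c, an NLR-family gene, had 40.2 and 27.0 CPM in the DMSO libraries and 2.18, 2.14 and 2.57 CPM in the 4OHT libraries, 14.5-fold lower (log2 -3.86 ± 0.22; edgeR adjusted p = 2.39e-08). Gpr139 fell 12.3-fold, Lrriq4 (overlapping Lrrc34) 10.8-fold and the arginine methyltransferase gene Prmt8 9.08-fold. Plpp3, a lipid phosphate phosphatase, had 121 and 133 CPM in the DMSO libraries and 16.5, 17.3 and 15.7 CPM in the 4OHT libraries, 7.72-fold lower. St8sia1, a ganglioside sialyltransferase, fell 7.21-fold from 177 and 173 CPM to 21.4, 29.4 and 23.1 CPM. Hoxc13, Slc5a11, Lrrn2 and Sgo2b fell between 7.22-fold and 7.53-fold.

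Losses in CPM, like gains, favour abundant transcripts. Tet1, which oxidises methylcytosine (overlapping Gm48353), had 1202 and 1149 CPM with DMSO (clones b, c) against 374, 453 and 356 CPM with 4OHT (clones a, b, c), 2.98-fold lower (log2 -1.58 ± 0.10; edgeR adjusted p = 5.21e-08). Cobl, an actin nucleator, fell 2.65-fold, Trps1, a GATA-type repressor, 2.98-fold, and Gli2, a Hedgehog-pathway factor, 2.92-fold from 629 and 515 CPM to 218, 195 and 173 CPM. Mtss1 fell 2.47-fold and Igfbp2 2.36-fold. Fn1, fibronectin, had 514 and 572 CPM in the DMSO libraries and 164, 298 and 207 CPM in the 4OHT libraries (-1.29 ± 0.25), and its call was lost without either DMSO library. Tfcp2l1, Esrrb and Fbxo15 of the naive list were also among the 10 largest losses.

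The direction of change differed with the length of a gene. Of the 13985 genes 13864 (99.1%) matched the GENCODE annotation by symbol. Among the 1394 genes that span up to 5 kb, the median log2 fold change was 0.11, and 21.3% rose and 11.3% fell. From there the median fell with each longer bin, to 0.00 for the 3838 genes of 20 to 50 kb and -0.27 for the 966 genes over 200 kb, of which 11.2% rose and 39.9% fell. The genes that rose at least 2-fold had a median span of 20323 bases and those that fell at least 2-fold one of 38199, beside 27204 for all genes. Span is not independent of other properties: over these genes it had a Spearman's rho of 0.628 with exonic length and 0.29 with mean CPM in DMSO (genes are not independent replicates, and no test was made). The part of these properties in the difference was not tested.

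**Figure D4:**
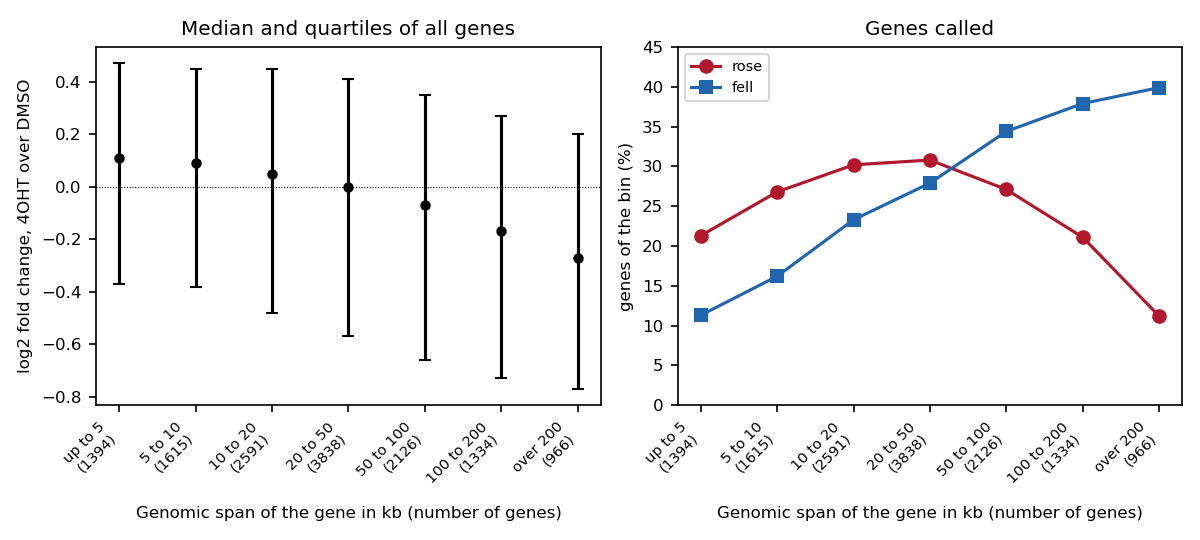
Left, median and quartiles of the log2 fold change (4OHT over DMSO) of all genes in 7 bins of genomic span; right, the percentage of genes of each bin that rose or fell. The median goes from 0.11 in the shortest bin to -0.27 in the longest, and the share of fallen genes from 11.3% to 39.9%.

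Further libraries address how much of this response 4OHT gave when the pathway was inhibited. With MEKi present, 4OHT raised 919 of 14019 genes (6.56%) and lowered 1207 (8.61%) against MEKi alone, 6 libraries that share none with the comparison above. Without 1 of the 3 libraries given MEKi and 4OHT (a, b or c), 1126, 1402 and 1226 genes were called there. With library totals the split turned, with 1499 genes higher and 272 lower (84.6% of those called were higher, against 43.2%). Of the genes that rose without inhibitor, 3572 could be tested there. Their median log2 fold change was 0.60 without inhibitor and 0.03 with MEKi, and 388 of them (10.9%, and 42.3% of the rises with MEKi) rose again, while 320 (8.96%) fell. Of 3719 fallen genes that could be tested, 511 (13.7%, and 42.4% of the falls with MEKi) fell again and 210 rose, and their median went from -0.93 to -0.07.

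With PP1, which acts on the ERK2 Q103A protein below MEK, 4OHT raised 2088 of 13545 genes (15.4%) and lowered 2234 (16.5%) against PP1 alone (2758 in all without the PP1 and 4OHT library of clone b). This split turned as well, with 966 higher and 542 lower with library totals (64.1% higher, against 48.3%) and 2748 higher and 1913 lower with all 17 libraries in the fit. Of 3574 risen genes tested there, 1468 (41.1%, and 70.3% of the rises with PP1) rose again and 71 fell, with a median of 0.23. Of 3679 fallen genes, 1532 (41.6%, and 69.3% of the falls with PP1) fell again and 52 rose, with a median of -0.32 in place of -0.93. The effect of 4OHT without inhibitor itself differed from that with MEKi in 5897 of 14782 genes (39.9%) and from that with PP1 in 3867 of 14398 (26.9%), by edgeR's quasi-likelihood test of the interaction. Of these, 48.3% and 45.3% were higher without inhibitor, and 13.5% and 12.2% with library totals.

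**Figure D5:**
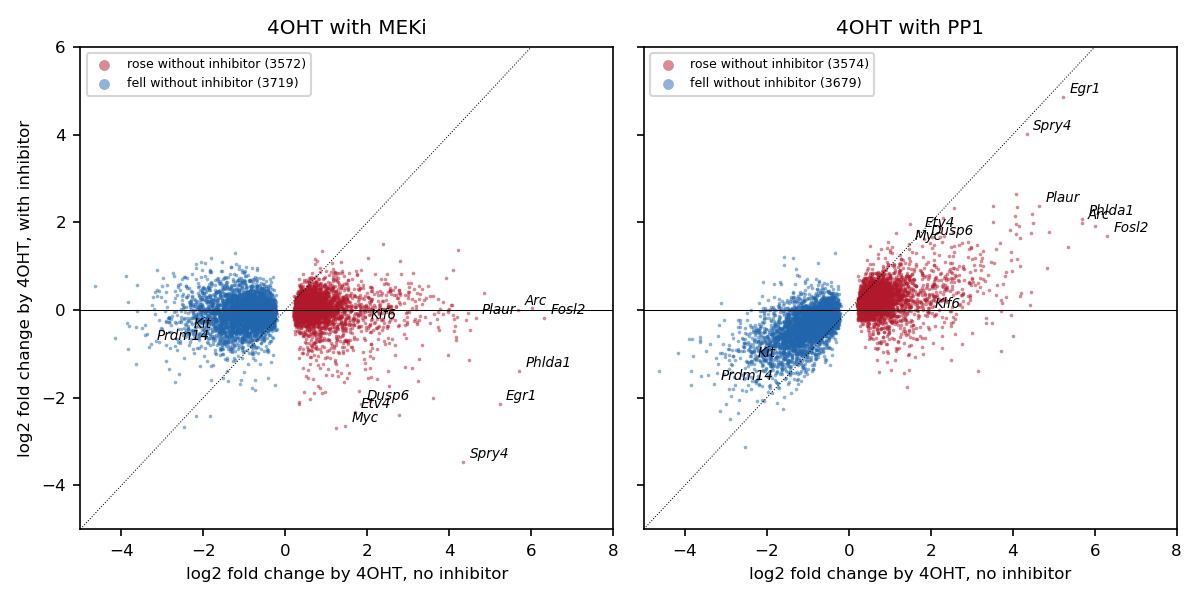
Log2 fold change by 4OHT in the presence of MEKi (left) or PP1 (right) against that without inhibitor, for genes that rose (red) or fell (blue) without inhibitor; the dotted line marks equal values. With MEKi the points scatter about 0 (medians 0.03 and -0.07) and with PP1 their medians keep the direction at a smaller size (0.23 and -0.32), with Egr1 and Spry4 near the line.

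Individual genes of the response fell into different patterns under the inhibitors. Spry4, which rose by 4.34 ± 0.12 on the log2 scale without inhibitor, had -3.47 ± 0.24 with MEKi and 4.02 ± 0.10 with PP1. The difference was called against MEKi (edgeR interaction adjusted p = 1.01e-14) and not against PP1 (edgeR interaction adjusted p = 0.106). Egr1 had 4.86 ± 0.13 with PP1, and Dusp6, Etv4 and Myc had 1.61, 1.80 and 1.51. With MEKi these 3 fell, with -2.16, -2.33 and -2.65 on the log2 scale (edgeR adjusted p = 1.13e-05, 1.83e-05 and 8.37e-05). For these 3 genes too the difference between PP1 and no inhibitor was not called (edgeR interaction adjusted p = 0.248, 0.554 and 0.811), although this does not show that the responses were equal.

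The rises of 6 other strong responders were smaller with PP1 by that test. Fosl2 had 1.68 ± 0.26 (edgeR interaction adjusted p = 2.93e-08), Arc 1.98 ± 0.12 (2.61e-10), Dusp5 1.98 ± 0.15 (1.04e-08), Plaur 2.38 ± 0.14 (8.64e-07), Hbegf 1.92 ± 0.11 (5.68e-08) and Nab1 1.74 ± 0.14 (2.12e-08), where the bracketed values are edgeR interaction adjusted p. Another set was not called at all with PP1. Klf6 had -0.05 ± 0.11, Dusp16 0.09 ± 0.09, Sox4 -0.01 ± 0.17, Tagln2 0.21 ± 0.29 and Efr3b 0.12 ± 0.19, and the interaction was called for each (edgeR adjusted p = 2.99e-08, 4.28e-07, 0.000225, 0.00309 and 2.61e-10). With MEKi, none of Fosl2, Arc, Dusp5, Plaur and Nab1 was called, with values from -0.45 to 0.11, and Hbegf fell (-0.37 ± 0.11; edgeR adjusted p = 0.0398).

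The falls of Kit and Prdm14 were smaller with either inhibitor. Kit had -0.50 ± 0.06 with MEKi and -1.17 ± 0.07 with PP1 beside -2.38 ± 0.09 without inhibitor, and Prdm14 had -0.79 ± 0.10 and -1.69 ± 0.12 beside -3.29 ± 0.17; both interactions were called for both genes. Nanog rose slightly with MEKi (0.32 ± 0.06; edgeR adjusted p = 0.00507) and fell with PP1 (-0.52 ± 0.10; edgeR adjusted p = 0.00255). Of the 23 naive pluripotency genes, 11 fell and 2 rose with MEKi.

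Cholesterol synthesis genes rose under both inhibitors as well, 18 of 21 with MEKi and 19 of 21 with PP1, with median log2 fold changes of 0.56 and 0.71 beside 0.74 without inhibitor. For Msmo1 the values were 1.19 ± 0.10 without inhibitor, 0.88 ± 0.09 with MEKi and 0.99 ± 0.11 with PP1, and neither interaction was called (edgeR adjusted p = 0.0965 and 0.442). In all, the interaction with MEKi was called for 8 of the 21 and that with PP1 for 5.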

How the data were processed

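The authors deposited 1 table of raw counts per gene symbol for 17 libraries, and 5 libraries carry the main comparison. STAR, featureCounts and the mm10 build are named per the submitters' processing notes; no version, annotation or strand setting is stated there, so reads of overlapping genes cannot be told apart. From the deposited counts, edgeR 4.0.16 under R 4.3.3 gave the tests (limma 3.58.1 and DESeq2 1.42.0 as alternatives): filterByExpr by group, TMM, robust quasi-likelihood fit of the 3 4OHT and 2 DMSO libraries (3 residual degrees of freedom), Benjamini-Hochberg adjusted p under 0.05. Without adjustment 8167 genes had p under 0.05. The 4OHT effects with MEKi and with PP1 were fitted on 6 libraries each and the interactions on 11. An SE is the absolute log2 fold change over the square root of F. A fold is the fitted value.

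The gene lists, the comparison and the genes followed were chosen with earlier results of these data known. Named outside the lists were the 12 largest rises and falls by fold among called genes with at least 10 counts in every library, and the 10 largest gains and losses in CPM, each the same way in clones b and c and passing over predicted symbols. Lists are described by counts and medians. Some list members are counted but not reported here by name. Positions come from GENCODE mouse release 21 by symbol and promoters from RefSeq. Clone labels link DMSO b with 4OHT b and DMSO c with 4OHT c, since each pair comes from 1 clone; the correlations of their deviations from the group means were -0.057 and 0.106. The tests were also run on simulated counts in which few genes changed, with directions drawn at random. Such counts cannot check the scaling where many genes change, and nothing is concluded from them here. Alternatives were another scaling, filter or tool, a clone block, all 17 libraries in the fit, and each library left out.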

Additional observations from a re-analysis of the deposited data

Results flagged for a closer look

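For 7 of the genes chosen for the size of their change or of their CPM gain or loss, 4OHT moved new RNA one way without inhibitor and the other way with MEKi, both called, and the difference itself was called by edgeR's interaction test on 11 libraries. Differences are log2 fold changes without inhibitor minus those with MEKi. Spry4 rose by 4.34 ± 0.12 and had -3.47 ± 0.24 with MEKi (difference 7.79 ± 0.19; edgeR adjusted p = 1.01e-14). Egr1 had 5.23 ± 0.15 and -2.14 ± 0.36 (difference 7.33 ± 0.36; edgeR adjusted p = 1.01e-08). Phlda1 had 5.70 ± 0.14 and -1.40 ± 0.41 (difference 7.06 ± 0.34; edgeR adjusted p = 5.49e-11). Pla2g7, the secreted phospholipase, had 4.47 ± 0.11 and -1.14 ± 0.22 (difference 5.59 ± 0.22; edgeR adjusted p = 5.86e-12). Slc2a1 had 1.65 ± 0.09 and -0.24 ± 0.06 (difference 1.87 ± 0.10; edgeR adjusted p = 2.42e-10). Trim71 had 1.43 ± 0.09 and -0.27 ± 0.06 (difference 1.68 ± 0.10; edgeR adjusted p = 3.35e-10). The Nodal antagonist Lefty1 went the other way, with -3.90 ± 0.57 and 0.78 ± 0.15 (difference -4.71 ± 0.57; edgeR adjusted p = 0.000262). With library totals the median over all genes with MEKi moved from -0.01 to 0.18 (log2), and 272 genes fell in place of 1207. The falls of Slc2a1 and Trim71 with MEKi are close in size to that shift. Single genes were not followed under other scalings with MEKi, so the opposite direction of these 2 may depend on the scaling. None of the genes chosen in that way was called in opposite directions without inhibitor and with PP1, and the members named from the lists were not checked for this.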

How the results depend on the processing

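The count of changed genes (7442) lay between 6346 and 8032 under other scalings, filters and tools, with all 17 libraries in the fit and with a clone block, and between 5297 (without DMSO b) and 7856 (without 4OHT a) when 1 library was left out. No gene called in both changed direction in any of these. At least 2-fold, 2679 genes were changed without inhibitor, 172 with MEKi and 713 with PP1, and the interactions with MEKi and PP1 had 2505 and 1440. Library totals as the only scaling left 1342 rises, and 1508 changes with PP1. Shared rises and falls then numbered 239 and 119 with MEKi and 425 and 391 with PP1. With the replicate block and all 17 libraries, shared rises with MEKi numbered 639. The block on the same 5 libraries gave 7983 changed genes and moved no other count by over 1.5 times, except the falls among cholesterol genes (1 in place of 2); it ended 9 of the calls of named or listed genes. Leaving out 1 library at a time gave 1126 to 2487 changed genes with MEKi (1126, 1402 and 1226 without MEKi with 4OHT a, b and c) and 2758 to 5489 with PP1 (2758 without PP1 with 4OHT b). Of 313 named or listed genes called, 204 were called under every alternative, 82 lost the call with library totals, 66 without a DMSO library and 33 without a 4OHT library. With library totals 8 of them had values below 0: Ddx10 -0.015, Dkc1 -0.025, Elf2 -0.042, Leo1 -0.021, Med23 -0.021, Nop58 -0.034, Supt5 -0.013 and Wdr12 -0.017. Genes with a mean below 30 counts had a median SE of 0.43, so changes under 2-fold were mostly below what this depth can show.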

Other observations

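Neighbouring genes sometimes moved together. Of 13839 pairs of adjacent tested genes, 25 pairs both rose at least 4-fold and 27 both fell at least 4-fold, with 318 and 299 genes of that size in all. The pairs named here were picked after their values were seen. S100a3, Cyth4 and Elfn2 would not have passed the count filter without the 4OHT libraries, nor Hoxc12, Hoxc11, Oas1a and Oas2 without the DMSO libraries. Such genes were tested only because they were higher in that group, so the pair counts depend in part on the filter. On chromosome 3, S100a3, a calcium-binding protein that overlaps S100a2, went from 1 and 6 counts in the DMSO libraries to 18.2, 16.4 and 14.6 CPM in the 4OHT libraries and lies 10179 bases from S100a6. On chromosome 15, Cyth4 had 0.395 and 0.623 CPM in the DMSO libraries and 27.6, 27.3 and 25 CPM in the 4OHT libraries. Its neighbour Elfn2 had 0.473 and 0.178 CPM in the DMSO libraries and 5.60, 4.27 and 5.13 CPM in the 4OHT libraries. Among the falls, 3 adjacent HOXC genes moved together: Hoxc13 had 11.6 and 20.3 CPM in the DMSO libraries and 2.66, 1.97 and 1.56 CPM in the 4OHT libraries. Hoxc12 had 6.08 and 9.26 CPM in the DMSO libraries and 1.23, 0.986 and 0.558 CPM in the 4OHT libraries. Hoxc11 had 1.66 and 1.16 CPM in the DMSO libraries and 0.38, 0.329 and 0.223 CPM in the 4OHT libraries. The interferon-induced oligoadenylate synthetase genes on chromosome 5 fell as a row of 5. Oas1a had 5.05 and 2.32 CPM in the DMSO libraries and 0.57, 0.986 and 0.112 CPM in the 4OHT libraries. Oas2 had 4.10 and 3.21 CPM in the DMSO libraries and 0.665, 1.31 and 0.335 CPM in the 4OHT libraries, and Oas1c, Oas1b and Oas1g fell 4.14-fold, 4.32-fold and 5.99-fold. These 5 are paralogs, several 4OHT values are at or under 3 counts, and reads could be split between copies.

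Long noncoding RNAs annotated as sharing a bidirectional promoter fell more often than they rose, 22 against 4 of 58 tested, with a median log2 fold change of -0.69 beside -0.02 for 13645 protein-coding genes. Of the 56 with a tested protein-coding partner starting within 2000 bases on the other strand, 21 fell. Their partners rose in 9 cases, fell in 5 and were not called in 7. Over all 56 pairs 25 partners rose and 13 fell, while 26.7% of all protein-coding genes tested rose and 26.8% fell. The partners of fallen lncRNAs thus rose in about the same share as all partners. The pairs that follow were chosen after their values were seen. E130317F20Rik fell by 2.25-fold (8.52 and 10.1 CPM in the DMSO libraries and 4.75, 2.63 and 4.58 CPM in the 4OHT libraries) while Ptbp1, a splicing repressor, rose 1.84-fold from 133 and 148 CPM to 226, 282 and 269.5 CPM. Gm16576 fell 1.95-fold while Sun2 rose 3.21-fold. Depth moved with this result: among all genes with a mean of 30 to 100 counts 874 fell and 289 rose of 2517, and the strand setting of the counts is not known. Some of these lncRNAs would not have passed the count filter without 1 of the groups, so they were tested only because they were higher there. Among them were the fallen 4921507G05Rik (mean 1.86 CPM in DMSO, 0.48 in 4OHT) and 5330439K02Rik (2.44, 0.53). The risen Gm10941 (0.26, 2.07) and Gm2449 (0.87, 4.14) were others. The part of depth, strand and filter in the result was not tested.

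By chromosome the median log2 fold change ran from -0.09 (chromosomes 6 and 12) to 0.11 (chromosome 17). On chromosome 17, 30.2% of 672 genes rose and 20.4% fell, beside 26.4% and 26.8% of all genes.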
